A study of Mus musculus with 3 samples.

Results

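TRα1 binding sites (TRBS) were examined at 10 autophagy genes in the striatum of adult mice, namely Trp53inp1, Trp53inp2, Ulk1, Ulk2, Map1lc3a, Map1lc3b, Gabarap, Sqstm1, Becn1 and Tfeb. A TRBS was attached to a gene if its summit, the base with the highest coverage of ChIP fragments, lay inside the gene body or within 30 kb of the 5′ end of the gene, hereafter its transcription start site (TSS). This rule gave 18 TRBS, out of 23988 in the whole list. It attached at least 1 TRBS to 9 of the 10 genes, all but Ulk1, against 57.7% of the 21938 protein-coding genes. If the start of every annotated transcript was used as a TSS, Ulk1 also had 1 TRBS and the count was 10 of 10. The share of all protein-coding genes was not computed for that setting. The ChIP-seq experiment had been performed on euthyroid, untreated male mice of the C57BL/6J strain aged 8 weeks. Their genotype was TRα1 GS-tagged, and per the labels the tagged receptor was expressed specifically in the GABAergic neurons, which restricts the experiment to the cells that carry the tag. Proteins had been crosslinked to DNA with disuccinimidyl glutarate, then with formaldehyde. The 2 ChIP libraries and the 1 input library shared this genotype and were represented by 1 list of TRBS without values for single libraries, hence no replicate error could be given and no test was made. All positions are those of the GRCm38 assembly.

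Macroautophagy encloses portions of the cytoplasm in a double membrane, the autophagosome, and delivers them to the lysosome. A kinase complex starts the process, a lipid kinase complex marks the site where the membrane forms, and ubiquitin-like proteins of the ATG8 family are attached to the growing membrane, where they retain the receptors that carry the cargo. Neurons do not divide and rely on this pathway to remove aggregated proteins and damaged organelles. TRα1 is a nuclear receptor of thyroid hormone (T3) that binds DNA mostly as a heterodimer with RXR. The preferred element of the heterodimer, called DR4, consists of AGGTCA half-sites repeated in the same orientation, with 4 bases between them.

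The DR4 matches found in the TRBS of these genes are displayed because they show how far each one departs from the consensus. A match was allowed up to 2 mismatches over the 12 bases of the half-sites, on either strand. There were 6 matches, in the TRBS of Trp53inp1, Trp53inp2, Ulk2, Map1lc3a, Gabarap and Tfeb. Each is given from 5′ to 3′ on the minus strand with the half-sites in capitals and 7 flanking bases on each side.
Trp53inp2, chr2:155382231-155382260: gcccaccGGGTCAccagAGGACAagcaccc
Ulk2, chr11:61853843-61853872: cgcaaatAGGTCAcacgAGGTTAtagaatc
Map1lc3a, chr2:155276428-155276457: ctcgcctGGGTGAcgtcAGGTCAcaacatt
Tfeb, chr17:47707063-47707092: agaaatcAGGGCAggtgAGGTTAagcctcc
Gabarap, chr11:70015503-70015532: tgaagatGGATCAccctAGGTCAggtagaa
Trp53inp1, chr4:11156689-11156718: atgcgcgAGGTCAggagGGGTCGggcgggt

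Positions in these elements are counted from 1 at the 5′ end of the first half-site to 16 at the end of the last. The Ulk2 element had a single mismatch, C15T, in its downstream half-site. The 5 other elements had 2 mismatches each. The Trp53inp2 element carried A1G and T14A, and the Tfeb element carried T4G and C15T, so that neither contained an intact half-site. In Map1lc3a (A1G and C5G) and in Gabarap (A1G and G3A) both mismatches were in the upstream half-site, and the downstream half-site was intact. The reverse was observed in Trp53inp1 (A11G and A16G), where the upstream half-site was intact. A1G was thus present in 3 of the 6 elements. It was present in 14.2% of the best matches of the 4138 TRBS with a DR4 in the whole list, and T14A was present in 14.96% of them. None of the 18 TRBS contained a perfect DR4, which was found in only 130 TRBS of the whole list.

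The strongest occupancy was observed at Trp53inp2 and Ulk2. Trp53inp2 encodes a protein that shuttles between the nucleus and the autophagosome, where it binds ATG8 proteins, and it is also known as a coactivator of thyroid hormone receptors. Its main TRBS (chr2:155381395-155382726) was 1332 bp long and had a pileup, the number of ChIP fragments that cover the summit, of 193. The exact 95% Poisson limits of this count were 167 to 222, and as for all the limits given here they cover the counting error only. They treat the pileup as an unscaled count, although its scaling was not stated. The local background that MACS2 used at this position was 1.69 fragments, which is the floor of this background in the whole list. It was at this floor in 6 of the 18 TRBS and in 42.6% of all TRBS. The fold enrichment, which is the ratio of the pileup to this background with 1 added to each, was 72.2. The TRBS ranked 49 of 23988 for fold enrichment, 108 for pileup and 229 for length. Its summit was located 1192 bases downstream of the TSS of the gene, in an untranslated exon. The start of another annotated protein-coding transcript of Trp53inp2 was only 49 bases away from this summit. The centre of the DR4 match printed above was 5.5 bases from the summit.

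A minor TRBS of Trp53inp2 (chr2:155400289-155400523) was located 19345 bases downstream of the TSS, beyond the end of the gene and in an intron of Ncoa6, which encodes a coactivator of nuclear receptors. The TSS of Trp53inp2 was the nearest gene 5′ end, although a transcript of Ncoa6 started 3157 bases away. Its pileup was 16 (95% limits 9.15 to 26.0) over a background of 1.80, and its fold enrichment was 6.08, below the median of 7.40 in the whole list. The limits of the pileup of the minor TRBS and of the main TRBS of Trp53inp2 did not overlap. The best DR4 match of the minor TRBS had 3 mismatches, but an intact half-site was present 7.5 bases from the summit. It is displayed with 12 flanking bases on each side, on the plus strand and with the half-site in capitals.
Trp53inp2, minor TRBS, chr2:155400382-155400411: gctcttttacaaAGGTCAaaggcctttctc

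Trp53inp1, the paralog of Trp53inp2, encodes a p53-inducible stress protein that also binds ATG8 proteins. It possessed a single TRBS (chr4:11156433-11156943), located 299 bases downstream of the TSS, in an intron. The pileup was 32 (21.9 to 45.2) and the background was 4.86 fragments, the highest of the 18 TRBS. The fold enrichment was 5.63, and the TRBS ranked 19253 of 23988 for fold enrichment but 6130 for pileup. The main TRBS of Trp53inp2 had a pileup far above these limits, so that both paralogs were occupied close to their TSS with very different amounts of fragments. The 201 bases centred on the summit of the Trp53inp1 TRBS are displayed to show the position of the element, which is 26.5 bases from the summit and partly overlaps a GC box. They are given on the plus strand, where the half-sites, in capitals, read as the reverse complement of the element above. They do not overlap an annotated exon.
Trp53inp1, chr4:11156630-11156830: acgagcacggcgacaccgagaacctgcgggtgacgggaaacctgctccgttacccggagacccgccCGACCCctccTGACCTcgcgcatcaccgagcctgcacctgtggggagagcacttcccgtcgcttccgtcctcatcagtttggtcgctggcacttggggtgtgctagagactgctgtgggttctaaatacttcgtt

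**Figure D1:**
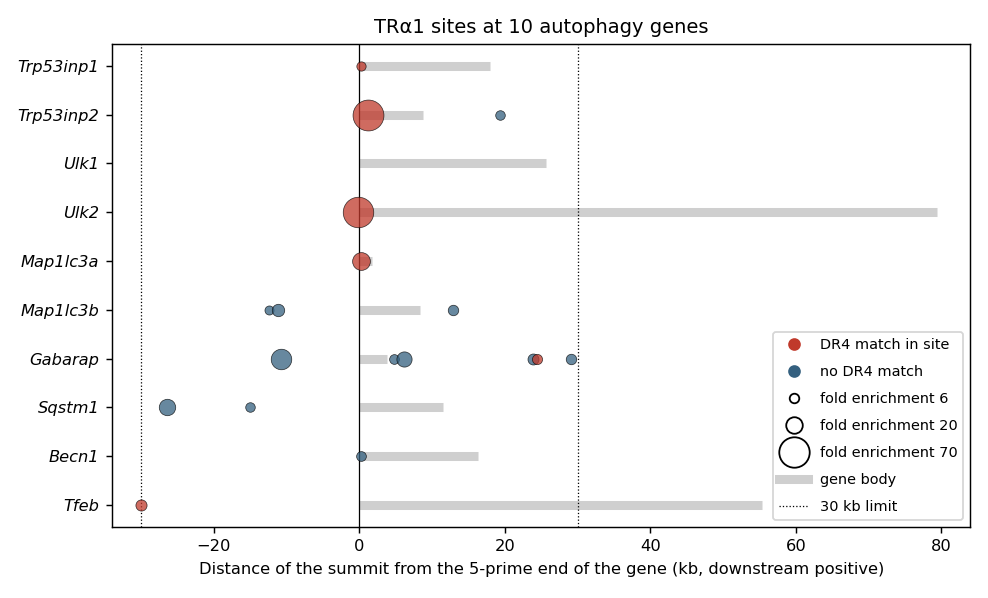
Position of the 18 TRBS relative to the TSS of each of the 10 autophagy genes, in kb, with downstream positions to the right. Each circle is a TRBS, its area grows with the fold enrichment, and it is red if the TRBS contains a DR4 match of at most 2 mismatches. Grey bars are gene bodies and dotted lines are the limits of 30 kb. The large circles of Trp53inp2 (fold enrichment 72.2) and Ulk2 (70.3) lie next to the TSS, whereas no circle is present for Ulk1.

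Ulk1 and Ulk2 encode the kinases that initiate the formation of the autophagosome. Ulk2 possessed a single TRBS (chr11:61853743-61855733), which spanned 1991 bp and ranked 28 of 23988 for length. The summit was located 200 bases upstream of the TSS. The pileup was 243 (213 to 276), the highest of the 18 TRBS, with a background of 2.47 fragments and a fold enrichment of 70.3, which ranked 58. The DR4 match with a single mismatch was inside this TRBS, but 1415.5 bases from the summit, on the side of the gene. The best match within 100 bases of the summit had 3 mismatches. An intact half-site outside any DR4 match was found 58.5 bases from the summit, and it is displayed in capitals on the minus strand, which is the strand of the gene.
Ulk2, half-site, chr11:61855317-61855346: gagggtggcttcAGGTCAgggcgtggcggg

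No TRBS was attached to Ulk1 (chr5:110784488-110810097, minus strand). The nearest TRBS of the list was 39395 bases downstream of its TSS, past the end of the gene, and had a fold enrichment of 12.6. Ulk1 had 1 TRBS with a distance of 60 kb, or with every transcript start as a TSS. The absence of a TRBS means only that no peak with a score of 60 or more was listed in this interval, as weaker enrichment was removed from the list and the depth of the libraries was not analysed here. The TRBS of Trp53inp2 and Ulk2 were the only ones among the 18 with a fold enrichment of at least 70. Such a value was reached by 59 TRBS of the whole list, or 0.246%, and by the strongest TRBS of 89 protein-coding genes, or 0.406%. This limit of 70 was set after the values had been seen.

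Becn1 encodes a subunit of the lipid kinase complex that nucleates the autophagosome. Its unique TRBS (chr11:101301936-101302214) was only 279 bp long and was located 194 bases downstream of the TSS, in an untranslated exon. The pileup was 16 (9.15 to 26.0), the background was 1.69 and the fold enrichment was 6.32. The best DR4 match had 4 mismatches. Other protein-coding genes are close to Becn1, as 5 other TSS are present within 30 kb, but the TSS of Becn1 was the nearest to this TRBS. The summits of Becn1 and Ulk2 were thus at a similar distance from the TSS, although on opposite sides of it, and their pileup limits were far apart.

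The 3 genes of the ATG8 family displayed different patterns. Map1lc3a, Map1lc3b and Gabarap encode ubiquitin-like proteins that are attached to the lipids of the autophagosome. Map1lc3a (chr2:155276297-155278073, plus strand) possessed 1 TRBS of 798 bp (chr2:155276194-155276991), with a summit 190 bases downstream of the TSS and 56 bases upstream of the start of another transcript. The pileup was 90 (72.4 to 111), the background was 2.92 and the fold enrichment was 23.2, which ranked 1573 of 23988. The DR4 match was 44.5 bases from the summit. A perfect cAMP response element (CRE, TGACGTCA) was found inside the DR4 match itself, where it covers the end of the upstream half-site, the spacer and the start of the downstream half-site. A CRE was present within 100 bases of the summit in this 1 TRBS out of 18, and in 0.542% of all TRBS.

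Map1lc3a and Trp53inp2 are neighbours on chromosome 2, in the same orientation. Their TSS are 104762 bases apart, and their strongest summits are 105764 bases apart. Only 1 TRBS that was attached to neither gene was listed between both TSS, with a fold enrichment of 6.69. The single other protein-coding TSS in this interval is that of Pigu. The segment was bounded by the TSS of these genes, so the position of their strong TRBS near its ends follows from this choice.

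Map1lc3b possessed 3 TRBS, and none of them was closer than 11203 bases to the TSS. The strongest (chr8:121579002-121579371), 11203 bases upstream, had a pileup of 33 (22.7 to 46.3), equivalent to a fold enrichment of 10.8. The others had a fold enrichment of 5.29, at 12445 bases upstream, and of 7.44, at 12874 bases downstream. The upstream pair was close to the TSS of Fbxo31, which was 352 bases away from the strongest summit and 890 bases away from the other. Fbxo31 encodes an F-box protein of a ubiquitin ligase. The downstream TRBS was located in an intron of Zcchc14, and a transcript of Zcchc14 started 1279 bases from it. No DR4 match was found in these 3 TRBS.

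Gabarap possessed 6 TRBS, the highest number among the 10 genes. It lies in a gene-dense region of chromosome 11 where 7 other protein-coding TSS are present within 30 kb, and none of the 6 TRBS was nearest to Gabarap. The strongest (chr11:69980098-69980837) was 10787 bases upstream of the Gabarap TSS, in an untranslated exon of Elp5 and 84 bases upstream of the start of a transcript of that gene. Ctdnep1, which encodes a phosphatase of the nuclear envelope, had the nearest gene 5′ end. Its pileup was 83 (66.1 to 103), its background was 1.69 and its fold enrichment was 31.2, which ranked 809 of 23988. A pair of TRBS was found near the 5′ end of Phf23, with a fold enrichment of 6.31 at 4823 bases and of 16.7 at 6125 bases downstream of the Gabarap TSS.

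The next pair of TRBS flanked the TSS of Acadvl, which encodes a dehydrogenase of the oxidation of fatty acids in mitochondria. The fold enrichments were 8.29 at 23810 bases and 6.95 at 24409 bases downstream of the Gabarap TSS. The latter contained the DR4 match of the Gabarap interval, 34.5 bases from its summit and 141 bases upstream of the Acadvl TSS. The last TRBS, at 29082 bases, had a fold enrichment of 7.44 and was located in an intron of Dlg4, which encodes the postsynaptic scaffold protein PSD-95. It was the only one of the 18 with an E-box (CACGTG) or an AP-1 site (TGANTCA) within 100 bases of its summit. The E-box is the core of the element that TFEB recognizes, and it was present near the summit of 4.68% of all TRBS, against 11.5% for the AP-1 site.

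Sqstm1 encodes p62, a receptor that links ubiquitinated cargo to ATG8 proteins. Its 2 TRBS were both far upstream. The strongest (chr11:50236818-50237590), 26445 bases from the TSS, showed a pileup of 62 (47.5 to 79.5) with a fold enrichment of 19.8. It was located in a noncoding exon of Ltc4s, which encodes leukotriene C4 synthase, 1344 bases downstream of the TSS of that gene. The other, 15050 bases from the TSS, had a pileup of 16 only (fold enrichment 6.03) and was located in an intron of Mgat4b, 542 bases from the start of a transcript of that gene. Neither contained a DR4 match.

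Tfeb encodes the transcription factor that activates the genes of lysosome biogenesis and autophagy. Its TRBS (chr17:47706903-47707267) was intergenic, 29951 bases upstream of the TSS, and therefore just inside the limit of 30 kb. The nearest TSS, that of Prickle4, was 12343 bases away. The pileup was 22 (13.8 to 33.3), the background was 1.69 and the fold enrichment was 8.55. Its DR4 match was the closest to a summit, with a centre 1.5 bases away. The 201 bases around this summit are displayed because they contain the match that is most precisely centred, on the plus strand and with the half-sites in capitals as above. They do not overlap an annotated exon.
Tfeb, chr17:47706979-47707179: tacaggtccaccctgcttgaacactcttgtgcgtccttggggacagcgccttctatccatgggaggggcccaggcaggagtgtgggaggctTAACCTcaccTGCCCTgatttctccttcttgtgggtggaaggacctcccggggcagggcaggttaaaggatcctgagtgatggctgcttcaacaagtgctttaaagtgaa

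The other TRBS closest to the limit from inside were those of Gabarap at 29082 bases and of Sqstm1 at 26445 bases. Just outside were a TRBS 34771 bases downstream of the Map1lc3b TSS, with a fold enrichment of 8.74, and a TRBS 34902 bases downstream of the Trp53inp1 TSS, with a fold enrichment of 6.27.

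**Figure D2:**
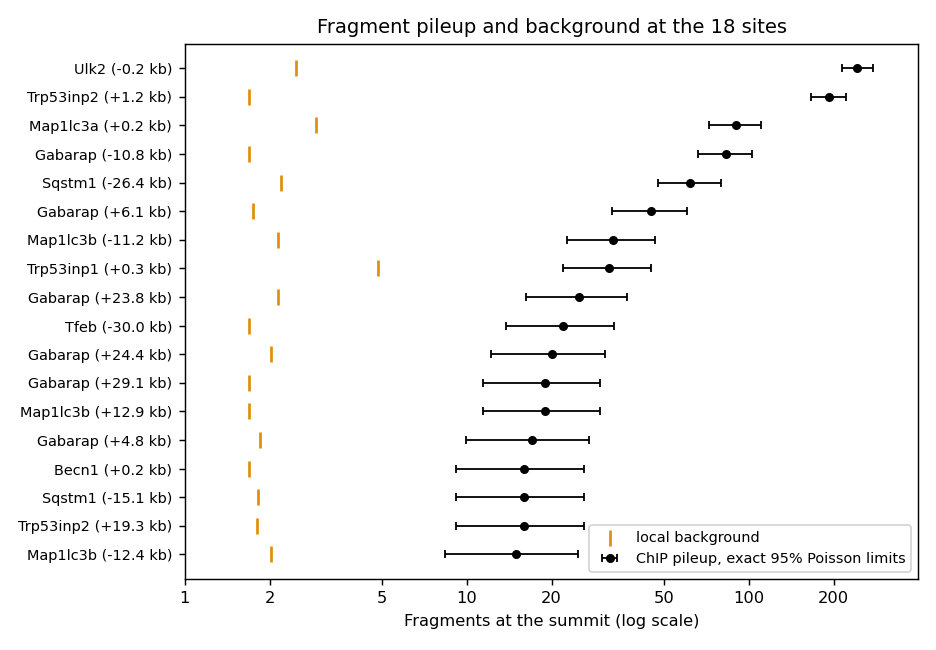
Pileup of ChIP fragments at the summit of the 18 TRBS with exact 95% Poisson limits (points and bars), and local background (orange marks), both in fragments on a log scale. TRBS are named by the gene and the distance of the summit from its TSS in kb. The pileup ranges from 15 to 243, while the background stays between 1.69 and 4.86 fragments.

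Over the 18 TRBS, the fold enrichment ranged from 5.29 to 72.2 with a median of 7.87, close to the median of 7.40 over all TRBS. The upper quartile was 19.0 against 11.2 in the whole list, and the lower quartile was 6.31 against 5.95. The typical TRBS of these genes was thus of ordinary strength, and a few of them were strong. The median pileup was 23.5 against 21, and the median length was 469.5 bp against 422 bp. The strongest TRBS of a gene had a fold enrichment of at least 20 in 4 of the 10 genes, against 11.1% of the protein-coding genes. These were Trp53inp2, Ulk2, Gabarap and Map1lc3a. The limit of 20 was not among the planned comparisons, and Sqstm1, at 19.8, was just below it. The median of the strongest TRBS was 19.8 over the 9 genes with a TRBS, against 10.04 over all genes with a TRBS. This median is the value of the Sqstm1 TRBS nearest to Ltc4s, and the strongest TRBS of Gabarap was nearest to Ctdnep1. With 10 kb in place of 30 kb, Sqstm1 had 0 TRBS and the highest value of Gabarap was 16.7. With 10 genes, each gene moves a share of genes by 10 percentage points. These genes were moreover chosen with results of these data known, so that these shares are only a description.

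**Figure D3:**
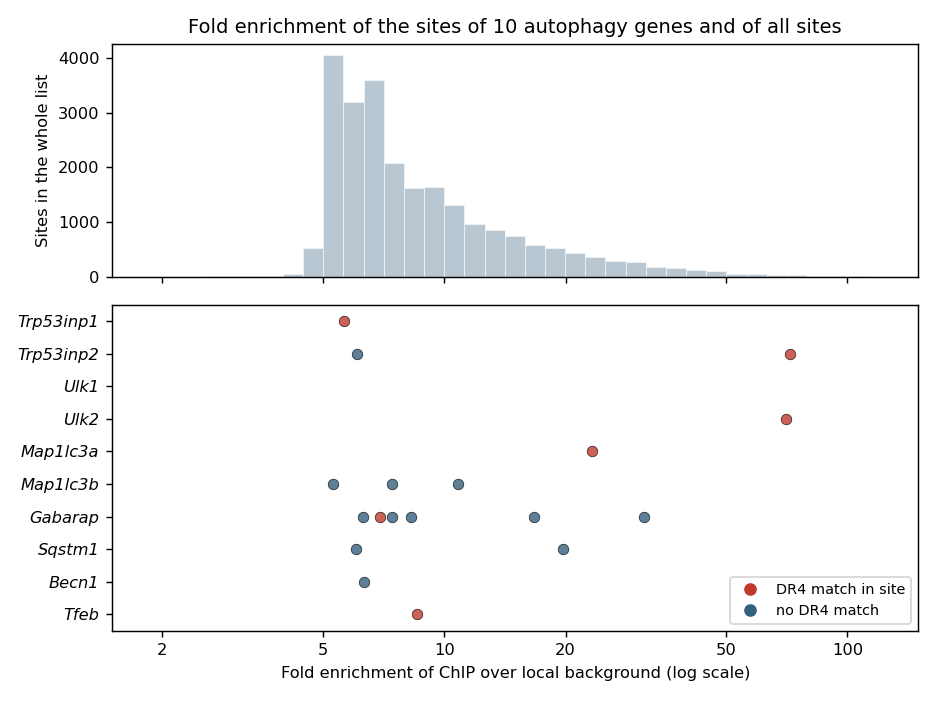
Fold enrichment of all 23988 TRBS (upper panel, number of TRBS in each interval) and of the TRBS of each autophagy gene (lower panel, 1 point for each TRBS) on a common log axis. Red points contain a DR4 match of at most 2 mismatches. Most points lie in the bulk of the list, between 5 and 10, and those of Trp53inp2 and Ulk2 lie in its upper tail at 72.2 and 70.3.

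The position of the TRBS was considered next. A TRBS was present within 1 kb of the TSS of the gene itself in 4 of the 10 genes, Trp53inp1, Ulk2, Map1lc3a and Becn1, against 23.2% of the protein-coding genes. The main TRBS of Trp53inp2 was left out of this count by 192 bases if the 5′ end of the gene was used. If any protein-coding gene was considered, 10 of the 18 TRBS were within 1 kb of a TSS, against 20.4% of all TRBS. For the 6 others of these 10, the TSS was that of another gene. The rule admits only summits in a gene body or within 30 kb of a TSS, whereas the whole list was not limited in this way. The comparison with all TRBS is thus partly set by the rule. The nearest gene 5′ end was that of the listed gene for 7 TRBS and that of another gene for 11, including all those of Gabarap, Sqstm1 and Tfeb. The median fold enrichment was 7.44 in the former group and 8.29 in the latter. Which gene these TRBS regulate, if any, was not tested, as the list contained no expression data. Relative to the TSS of the listed gene, 11 TRBS were downstream and 7 upstream, and 4 were inside the gene body. The median length of these 10 genes was 13.9 kb, against 17.4 kb for all protein-coding genes.

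A DR4 match was present in 6 of the 18 TRBS, or 33.3%, against 17.3% of all TRBS. It was located within 100 bases of the summit in 5 of them, all but that of Ulk2, against 13.1% of all TRBS. The median fold enrichment was 15.9 in the 6 TRBS with a DR4 match and 7.44 in the 12 others. In the whole list, these medians were 8.18 and 7.08. The values of the 6 TRBS were widely spread, from 5.63 for Trp53inp1 to 72.2 for Trp53inp2, and overlapped those of the 12 others, which reached 31.2. Among these 12, the best match had 3 mismatches in 4 TRBS, 4 in 7 and 5 in 1. A best match of 3 mismatches was found in 22.2% of the 18 TRBS, against 35.6% of all TRBS. The difference in DR4 share was hence smaller if 3 mismatches were allowed. Long TRBS offer more positions for a match, and those of Ulk2 and Trp53inp2 were among the longest 1% of the list. The part of length in the DR4 count was not tested.

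**Figure D4:**
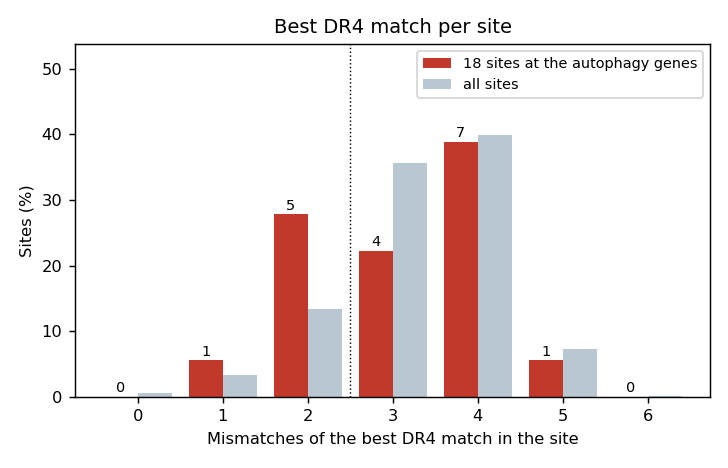
Number of mismatches in the best DR4 match of each TRBS, as a share of the 18 TRBS of the autophagy genes (red, number of TRBS above each bar) and of all TRBS (grey). The dotted line is the limit of 2 mismatches used to define a match. There are 5 TRBS with 2 mismatches and 1 with a single mismatch, and none without mismatch.

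An intact half-site AGGTCA was present within 100 bases of the summit in 5 of the 18 TRBS, against 17.8% of all TRBS. These were the TRBS of Trp53inp1, Ulk2 and Map1lc3a, the minor one of Trp53inp2 and that of Gabarap next to Acadvl. In 3 of them the half-site belonged to the DR4 match. The half-site was searched after the DR4 matches had been seen. A GC box (GGGCGG) was found near 5 summits, against 18.2% of all TRBS, and an NF-Y box (CCAAT) near 2, against 19.9%. The ETS motif CCGGAAGT was found near none, against 0.934% of all TRBS. All these motifs were searched without mismatch on both strands, and they may overlap one another. Promoters are rich in GC boxes. Among the 10 TRBS located within 1 kb of a TSS, 2 had a GC box near the summit, against 52.8% of all TRBS in the same position. The other summits with a GC box were at Gabarap and Sqstm1. They lay 159, 285 and 542 bases from the start of an annotated transcript. The count of 2 thus depends on the starts used, and it rests on few TRBS. The median GC content around the summit of these 10 TRBS was 59.0%, against 66.2% for all TRBS within 1 kb of a TSS. For the 18 TRBS, it was 58.0% against 50.7% in the whole list. Unlike the 18, the whole list was not limited to TRBS in or near genes.

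A prepared set of promoters from the RefSeq annotation of the same assembly covered 7 of the 10 genes, with 9 promoters. Trp53inp1, Map1lc3a and Becn1, which had a TRBS within 1 kb of the TSS, were absent from this set and are left out of this count. Whether RefSeq annotates them outside the set was not examined. TRBS overlapped 2 of the 9 promoters, those of Trp53inp2 and Ulk2, against 13.9% of all promoters of the set. They covered the 250 bases upstream of both starts in full. The summits were 395 bases downstream of the RefSeq start of Trp53inp2 and 181 bases upstream of that of Ulk2. None of the 9 promoters contained a DR4 match, which was found in 2.57% of all promoters of the set. The Ulk2 promoter contained the intact half-site printed above, and such a half-site was found in 14.02% of all promoters.

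Occupancy was also counted for 58 other autophagy genes, grouped by role. At least 1 TRBS was attached to 44 of them, or 75.9%, against 57.7% of all protein-coding genes. A TRBS was within 1 kb of the TSS in 21 of them, or 36.2%, against 23.2%. The counts by role given next rest on 2 to 10 genes each and are to be read beside these shares of all genes, which several of them approach. The median of their strongest TRBS was 10.04, equal after rounding to that of all genes with a TRBS. These genes were longer than the 10 genes above, with a median of 38.9 kb, and the rule counts the whole gene body. The highest fold enrichment among them was 53.6, below those of Trp53inp2 and Ulk2.

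In the initiation group, a TRBS was attached to 4 of 4 genes, which are Atg13, Rb1cc1 and Atg101, the partners of the ULK kinases, and the kinase gene Ulk3. The TRBS of Ulk3 was 25713 bases upstream of its TSS and nearest to Scamp2. The strongest TRBS of Rb1cc1, which encodes the scaffold protein FIP200, reached a fold enrichment of 16.2 with a DR4 match at its summit, 8307 bases downstream of the TSS. Atg101, which encodes another subunit of the complex, had 14.8. In the nucleation group, 6 of 7 genes had a TRBS, although none had it within 1 kb of its own TSS. Ambra1, a regulator of the Beclin 1 complex, had 6 TRBS, the strongest with a fold enrichment of 36.4 and a DR4 match at its summit, 81712 bases inside the gene. Pik3r4, a regulatory subunit of the lipid kinase, had 36.1. Nrbf2 had none, since its nearest TRBS was 30142 bases upstream of the TSS, just beyond the limit. The strongest TRBS of the genes in this group ranged from 5.58 to 36.4, with a median of 7.38. The TRBS of Becn1, with 6.32, lay within this range and below those of Ambra1 and Pik3r4.

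For lipid transfer and ATG9, 5 of 7 genes had a TRBS. Wipi1, which encodes a phosphoinositide-binding protein, reached 53.6 with a pileup of 146 (123 to 172), 26605 bases downstream of its TSS. Atg2a, a lipid transfer protein, had 13.9 in a TRBS 22856 bases upstream of its TSS and nearest to Gpha2. A TRBS only 4 bases upstream of the Atg2a TSS had 11.3. Atg2b and Wipi2 had no TRBS. For the conjugation of ATG8 and ATG12, 6 of 10 genes had a TRBS and 4 had it within 1 kb of the TSS. Atg5 had a fold enrichment of 30.2, 109 bases upstream of the TSS, and Atg10 had 15.9, 16 bases downstream. The other ATG8 genes, Gabarapl1 and Gabarapl2, had fold enrichments of 10.04 and 14.5, at 11233 bases downstream and 16950 bases upstream of the TSS. The nearest gene was Tmem231 for the latter, and its TRBS carried a DR4 match at the summit. Map1lc3a was hence the only 1 of the 5 ATG8 genes examined with a TRBS within 1 kb of its TSS.

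Among the cargo receptors, 6 of 8 genes had a TRBS, and Nbr1 and Optn had none. Calcoco1 had a fold enrichment of 19.1. Wdfy3 had 8.18 in a TRBS nearest to Cds1, 221914 bases downstream of the Wdfy3 TSS. Among the transcription factors, 4 of 6 genes had a TRBS. The strongest were those of Foxo1, with 21.5, and Foxo3, with 18.5, which encode factors restrained by insulin signalling. Of the relatives of Tfeb, Tfe3 had 2 TRBS, the strongest with a fold enrichment of 7.07 at 247 bases from its TSS, whereas Mitf and Tfec had none. In the nutrient sensing group, 6 of 7 genes had a TRBS, with fold enrichments of 17.5 for Rptor, a subunit of mTORC1, and 10.9 for Prkaa2, a catalytic subunit of AMPK. Tsc2 had none. For the fusion with the lysosome, 5 of 7 genes had a TRBS. Tecpr1, a tethering factor, reached 29.5, 134 bases upstream of the TSS, and Plekhm1 had 21.6 in a TRBS nearest to Arhgap27. Stx17 and Snap29, which encode SNARE proteins of this fusion, had none.

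**Figure D5:**
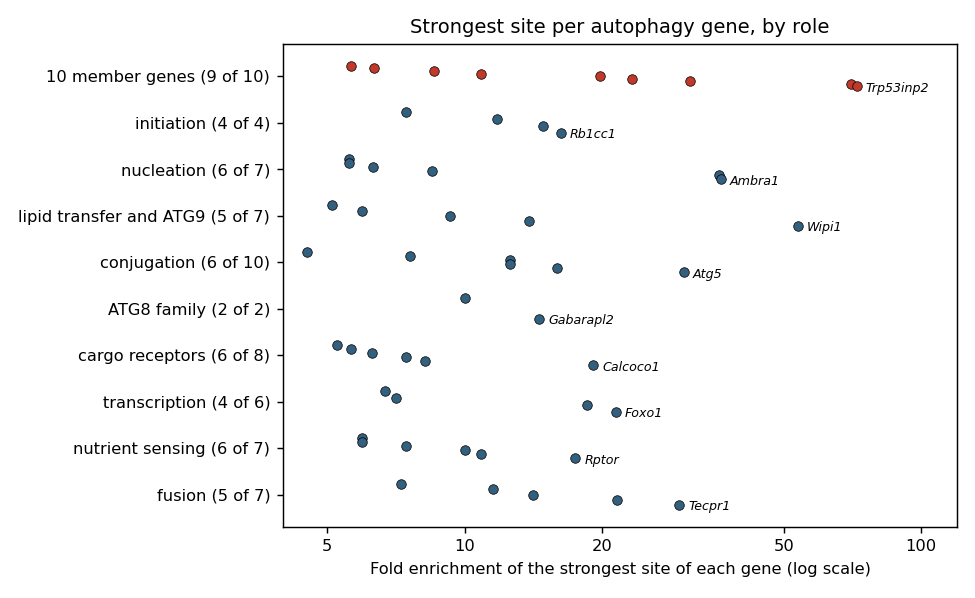
Fold enrichment of the strongest TRBS of each gene on a log scale, for the 10 autophagy genes (red) and for 58 other autophagy genes by role (blue). Each point is a gene, numbers are genes with a TRBS among genes listed, and the gene with the highest value of each row is named. Trp53inp2, at 72.2, exceeds all the genes of the other rows, of which Wipi1 is the highest at 53.6.

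The labelled cell type was checked with marker genes, although occupancy is not expression. A TRBS was attached to 7 of 8 markers of GABAergic and striatal projection neurons, all but Adora2a, with a highest fold enrichment of 42.4, against 57.7% of all protein-coding genes. It was attached to 0 of 4 markers of astrocytes, 2 of 4 of oligodendrocytes and 2 of 4 of microglia. With 4 genes in each list, the last 2 counts are near the share of all genes. Of the oligodendrocyte markers, Mbp had 11 TRBS, up to a fold enrichment of 32.7. The strongest TRBS of Drd1, Mog, Aif1 and Cx3cr1 were nearest to other genes, namely Sfxn1, Gabbr1, Prrc2a and Csrnp1. The part of other cells in the TRBS of the autophagy genes was not tested.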

How the data were processed

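The striatum of mice with GS-tagged TRα1 was studied with 2 ChIP libraries and 1 input library, grouped by their titles. Per the submitters' processing notes, the authors used Bowtie2 2.3.2.2, MACS2 2.1.1.20160309.0 and the mm10 assembly (GRCm38), and per the study's methods they removed peaks with a score below 60. Pooling of the ChIP libraries and treatment of duplicate reads were not given in the sources used here. The deposited list held the pileup (a coverage signal), the fold enrichment (a ratio), the −log10 p and q values and a score, which is 10 times −log10 q without decimals. These values are the authors' and were not normalised again. Library depth was not analysed here.

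To obtain the local background, 1 was added to the pileup, the sum was divided by the fold enrichment, and 1 was subtracted. Gene models were those of GENCODE vM21, with 21938 protein-coding genes outside the mitochondrial genome. Sequences were read from GRCm38. DR4 was searched with at most 2 mismatches in 12 bases, a simpler rule than the matrix of the study. Poisson limits (95%) cover counting error only, since fragments amplified by PCR are not independent molecules. The pileup was given in whole numbers, but whether it had been scaled was not stated, and the limits hold only for unscaled counts. The 10 genes and the other lists were chosen with earlier results of these data known. All 10 genes were named, with the gene nearest to each of their TRBS. Of the 58 other genes, the 2 with the strongest TRBS of each role were named, with those lacking a TRBS where these were at most 3. Other genes, such as Ncoa6, Elp5, Zcchc14, Mgat4b, Gpha2 and Cds1, were named after their values had been seen. The same holds for Ulk3 with Scamp2, Atg13, Tfe3 and the marker genes Adora2a, Mbp, Drd1, Mog, Aif1 and Cx3cr1. Computations relied on pysam 0.24.0, pandas 2.3.3, scipy 1.17.1, numpy 2.4.6 and matplotlib 3.10.9 under Python 3.11.15, and were tested on simulated data. Other distances, gene boundaries, starts, scores, peak positions and mismatch limits were tried.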

Additional observations from a re-analysis of the deposited data

How the results depend on the processing

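Of 70 alternative values for the main counts and medians, 46 stayed within 1.5 times of the main count, or within 1 percent of the main median. With 10 kb in place of 30 kb, 7 TRBS remained in the count, with a median fold enrichment of 16.7, 3 with a DR4 match at the summit, 5 within 1 kb of a TSS and 2 nearest to another gene. With 60 kb, there were 32 TRBS, with a median of 7.62, 16 within 1 kb of a TSS and 26 nearest to another gene. With every transcript start as a TSS, there were 21 TRBS with a median of 7.44, and 17 of these 21 were within 1 kb of a start. The share of all TRBS within 1 kb of any transcript start was not computed. The share of 20.4% given above applies to gene 5′ ends only. A score of at least 100 gave a median of 10.8. A score of at least 200 gave 7 TRBS with a median of 23.2, 3 with a DR4 match, 2 with it at the summit, 4 within 1 kb of a TSS and 4 nearest to another gene, and 22 of the 58 other genes with a TRBS. With the midpoint of the peak, 3 TRBS had a DR4 match at the centre. At most 1 mismatch gave 1 TRBS with a DR4 match and 0 with it at the summit, and at most 3 mismatches gave 10 and 9. A shorter distance, a higher score or fewer mismatches keeps fewer TRBS by construction, and the cause of the other changes was not tested. The count of genes with a TRBS, 9 of 10, was 10 with 60 kb or every transcript start, as Ulk1 then had 1 TRBS. It was 8 with a score of at least 100, and 6 with 10 kb or a score of at least 200. The shares of all protein-coding genes with a TRBS were not computed for these settings. Becn1 had 0 TRBS at both scores, Trp53inp1 had 0 at a score of 200, Map1lc3b and Sqstm1 had 0 with 10 kb, and Tfeb had 0 with 10 kb or at a score of 200. For single genes, 117 of 145 values stayed within the same limits. A gene left with 0 TRBS has no fold enrichment, so such lost values are not among the 145. No library could be left out, and no paired analysis was possible because the list holds no values for single libraries. The number of reads behind the list limits which weak TRBS could be listed.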
